A study of Mus musculus with 92 samples.

Results

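The messenger RNAs described here are 9 of the 13 protein-coding transcripts of the mouse mitochondrial genome, measured in quadriceps muscle of 92 mice. They were found by gene symbol in the table of 13441 genes: mt-Nd1, mt-Nd2, mt-Nd4 and mt-Nd5, which encode membrane subunits of complex I, mt-Cytb, the cytochrome b of complex III, mt-Co1, mt-Co2 and mt-Co3, the core of complex IV, and mt-Atp6, a proton-channel subunit of ATP synthase. All 9 were in the table. The table also listed mt-Nd3, mt-Nd4l, mt-Nd6 and mt-Atp8, which are used here only for reference, and 13428 nuclear genes.

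The animals formed 1 group. They were DOz mice, an outbred stock whose animals differ genetically from one another, carried the same treatment label, chow, which they had eaten for life, and were about 18 to 20 weeks old. Libraries were prepared from 500 ng of total RNA with a kit that selects polyadenylated RNA. No genotype or sex is given in the labels, so the comparisons below run between genes and along the differences between animals.

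The mitochondrial genome is a small circle, present in many copies in a muscle fibre and passed on through the mother. Its strands are transcribed into long precursors, tRNAs between the genes mark most of the cuts, and the freed mRNAs receive short poly(A) tails inside the organelle. The precursor gives the same number of copies of each gene that it covers, so differences in level between mRNAs of 1 strand are usually ascribed to processing and turnover. The proteins work only when assembled with subunits that are encoded in the nucleus and imported, which is why both sets of transcripts are followed below.

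All 9 lie on the + strand of chrM in GENCODE M21 (GRCm38, the mm10 build named in the submitters' processing notes), and each is a single exon without introns. mt-Nd1 spans positions 2751 to 3707, mt-Nd2 3914 to 4951, mt-Co1 5328 to 6872, mt-Co2 7013 to 7696, mt-Atp6 7927 to 8607, mt-Co3 8607 to 9390, mt-Nd4 10167 to 11544, mt-Nd5 11742 to 13565 and mt-Cytb 14145 to 15288. The last 30 bases of each annotated coding gene are shown because 3 of them end inside the stop codon. Capitals mark the bases of the stop codon that the genome itself encodes.
mt-Nd1: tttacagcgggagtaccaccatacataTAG
mt-Nd2: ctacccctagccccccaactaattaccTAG
mt-Co1: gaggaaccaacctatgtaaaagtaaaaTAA
mt-Co2: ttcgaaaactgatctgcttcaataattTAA
mt-Atp6: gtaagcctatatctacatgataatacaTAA
mt-Co3: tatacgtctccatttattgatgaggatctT
mt-Nd4: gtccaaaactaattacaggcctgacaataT
mt-Nd5: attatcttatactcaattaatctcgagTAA
mt-Cytb: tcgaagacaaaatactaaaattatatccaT
In mt-Co3, mt-Nd4 and mt-Cytb the annotated gene ends in a single T, and the rest of a UAA stop is supplied by the A residues of the poly(A) tail. The other 6 encode their stop in full, and their mRNAs can run past the annotated end before the tail begins. mt-Atp6 and mt-Co3 share 1 base, and the sequence across their border is shown because no tRNA separates them. Capitals mark the end of mt-Atp6 and the start codon of mt-Co3, from position 8578 to 8636.
mt-Atp6 to mt-Co3: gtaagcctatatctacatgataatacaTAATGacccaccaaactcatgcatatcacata
mt-Co3, mt-Co1, mt-Co2, mt-Nd4, mt-Atp6 and mt-Cytb begin with ATG. mt-Nd1 begins with GTG, mt-Nd2 with ATA and mt-Nd5 with ATC, start codons that mitochondrial ribosomes accept.

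The 92 libraries had similar sums and medians. Raising 2 to each deposited log2 value and summing gave 898071 to 1140761 per library, close to a per-million scale, and the median log2 value of a library lay between 3.43 and 3.55. The number of reads behind each library is unknown, so precision is given by the spread between animals. The 8 defining skeletal muscle markers, among them Myh4, Acta1 and Ckm, took 9.54% to 17.1% of the summed expression of a library, against 0.0339% to 0.298% for 8 adipocyte markers and 0.0043% to 0.065% for 8 macrophage markers. The blood markers ranged more widely, from 0.0249% to 2.58%. The samples are bulk muscle, in which more cells of a type, more mitochondria per fibre and more RNA per mitochondrion cannot be told apart.

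The 9 mRNAs together made up 15.9% ± 2.85 (SD, n = 92) of summed expression. The lowest animal had 9.32%, the median animal 16.3% and the highest 21.5%. mt-Co1 alone accounted for 2% to 5.93%, with a median of 4.51%, and was the second most abundant gene of the whole table. The other members ranked between 5 (mt-Cytb) and 18 (mt-Nd2) by mean linear level. Because mRNAs compete for the same per-million scale, rescaling each library to its nuclear genes moved all values of a library up by 0.09 to 0.44 on the log2 scale, with a median of 0.24.

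On the deposited log2 per-million scale, the complex IV mRNA mt-Co1 had a mean level of 15.33 ± 0.44 (SD, n = 92), with 14.24 in the lowest animal, 15.47 in the median animal and 15.93 in the highest. mt-Co2 averaged 13.85 ± 0.29 and ran from 13.02 through a median of 13.86 to 14.42. mt-Co3 averaged 13.87 ± 0.23 and ran from 13.43 through 13.86 to 14.39. mt-Co1 was left-skewed, with a skewness of -0.95 and a tail of low animals, whereas the skewness of mt-Co3 was 0.16. Among the complex I mRNAs, mt-Nd1 averaged 13.65 ± 0.38 (12.66, 13.75 and 14.43 in the lowest, median and highest animals) and mt-Nd2 13.24 ± 0.51 (12.05, 13.40 and 14.01). mt-Nd4 averaged 14.08 ± 0.29 (13.33, 14.08 and 14.65) and mt-Nd5 13.30 ± 0.35 (12.22, 13.34 and 14.09). mt-Nd2, like mt-Co1, had a tail of low animals and a skewness of -0.87. mt-Cytb averaged 14.18 ± 0.33 (13.37, 14.22 and 14.89), and mt-Atp6 14.06 ± 0.33 (13.29, 14.09 and 14.66).

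The distance between the lowest and the highest animal was 1.94-fold for mt-Co3, the narrowest of the 9, and 3.91-fold for mt-Nd2, the widest. It was 2.48-fold for mt-Nd4, 2.58-fold for mt-Atp6, 2.64-fold for mt-Co2, 2.85-fold for mt-Cytb, 3.23-fold for mt-Co1, 3.40-fold for mt-Nd1 and 3.65-fold for mt-Nd5. The SD of the members had a median of 0.330. The 22 nuclear genes of comparable abundance (mean log2 level of at least 12), among them Myh4, Ttn, Aldoa and Gapdh, had a median SD of 0.199. Of those 22 genes, 8 varied more than mt-Co3 and only 1 varied more than mt-Nd2 or mt-Co1. These SDs are over all animals and include the distance between the clusters described further on. Inside the larger cluster of 70 animals the SD of the 9 ran from 0.194 (mt-Co1) to 0.257 (mt-Atp6), with 0.243 for mt-Nd2. Inside the smaller cluster of 22 animals it ran from 0.190 (mt-Cytb) to 0.278 (mt-Nd1). The spread of the nuclear genes was not compared inside the clusters.

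Low and high animals overlapped between the members. Animal 35 (animals are numbered in accession order) had 12.66 for mt-Nd1, 12.05 for mt-Nd2, 14.24 for mt-Co1, 13.02 for mt-Co2, 13.40 for mt-Atp6, 13.52 for mt-Co3, 13.45 for mt-Nd4, 12.78 for mt-Nd5 and 13.50 for mt-Cytb. Animal 13 had 14.20, 14.01, 15.92, 14.42, 14.61, 14.33, 14.62, 13.63 and 14.89 for the same genes in the same order. The 9 mRNAs took 9.36% of expression in the first and 20.7% in the second. Of the 23 lowest animals for a given mRNA, 9 were among the 23 lowest for all 9 mRNAs, and 9 animals were among the 23 highest for all 9. By contrast, 54 animals were among the 23 lowest for none. The cluster of 22 animals described further on held from 9 (mt-Co3) to 21 (mt-Co1 and mt-Nd2) of the 22 lowest animals of a member.

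**Figure D1:**
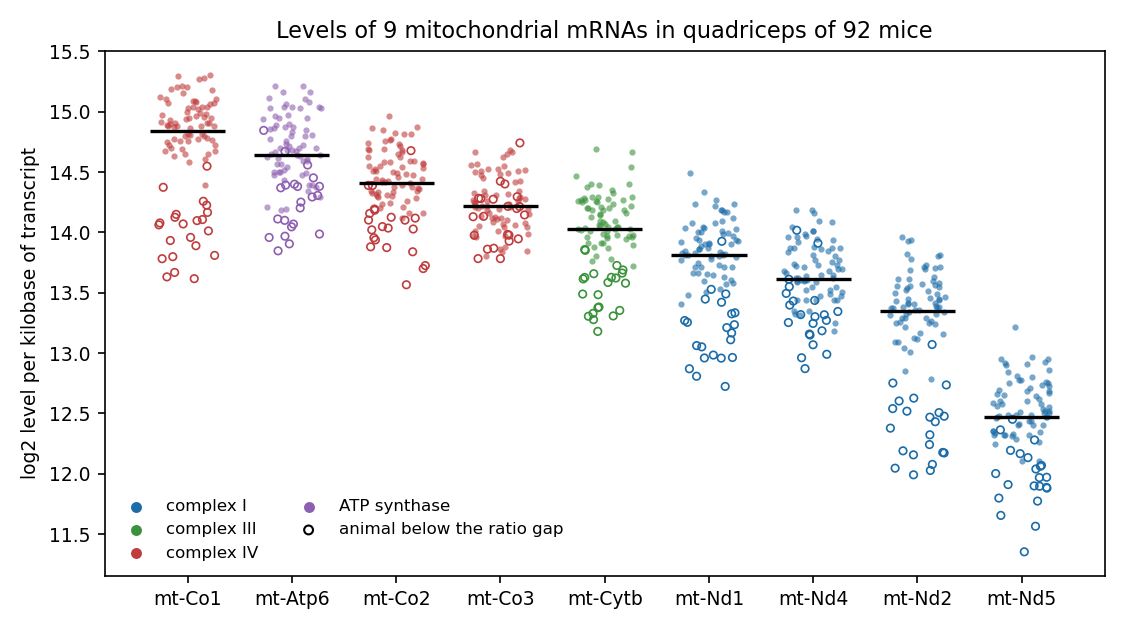
Log2 level per kilobase of transcript (vertical axis) of each of the 9 mRNAs in the 92 animals, 1 point per animal, coloured by respiratory complex, with bars at the medians and genes in the order of their means, from mt-Co1 (14.71) to mt-Nd5 (12.43). Open circles are the 22 animals below the gap in the mt-Co1 to mt-Co3 ratio described further on: they lie at the bottom for mt-Co1 and mt-Nd2 and are mixed with the others for mt-Co3.

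Reads from a longer mRNA are more numerous, so, taking the deposited values as not yet divided by length, levels were compared between genes after subtracting log2 of the annotated length in kilobases. Per kilobase the order was mt-Co1 (14.71), mt-Atp6 (14.62), mt-Co2 (14.40), mt-Co3 (14.22), mt-Cytb (13.99), mt-Nd1 (13.72), mt-Nd4 (13.62), mt-Nd2 (13.18) and mt-Nd5 (12.43). Per kilobase the 3 complex IV mRNAs and mt-Atp6 thus stood above mt-Cytb, and mt-Cytb above the 4 complex I mRNAs. Within complex IV the order followed the order of the genes on the strand, whereas in complex I it did not, since mt-Nd4 stood above mt-Nd2. The sources used here do not say whether the values had already been divided by length. Had they been, Ttn, the gene of the giant muscle protein titin, would have taken 24.4% to 36.3% of the reads of a library by its longest transcript, and as deposited it took 0.99% to 1.91% of the summed values. On the deposited values the order was mt-Co1 (15.33), mt-Cytb (14.18), mt-Nd4 (14.08), mt-Atp6 (14.06), mt-Co3 (13.87), mt-Co2 (13.85), mt-Nd1 (13.65), mt-Nd5 (13.30) and mt-Nd2 (13.24), with mt-Cytb and mt-Nd4 above mt-Co2, mt-Co3 and mt-Atp6.

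Neighbours in that order were compared within each animal by randomly flipping the signs of the 92 differences (100000 resamples, two-sided permutation test), with Benjamini-Hochberg adjustment over the 8 pairs. mt-Co1 exceeded mt-Atp6 by 0.09 ± 0.21 (SD of the difference) in 66 animals and lay below it in 26, with an adjusted p of 0.00021 in the permutation test. mt-Nd1 exceeded mt-Nd4 by 0.10 ± 0.19, also in 66 animals. mt-Atp6 exceeded mt-Co2 by 0.22 ± 0.11 in 90 animals, mt-Co2 exceeded mt-Co3 by 0.17 ± 0.16 in 74, mt-Co3 exceeded mt-Cytb by 0.24 ± 0.23 in 82 and mt-Cytb exceeded mt-Nd1 by 0.27 ± 0.14 in 88. At the lower end of the order the sign was the most even but the size the least. There mt-Nd4 exceeded mt-Nd2 by 0.43 ± 0.30 and mt-Nd2 exceeded mt-Nd5 by 0.75 ± 0.26, each in all 92 animals. For these 7 pairs the permutation p was 1e-05, the smallest that 100000 resamples can give, and 1.14e-05 after adjustment. The sign of each mean difference was the same in all 5 runs of sample title numbers. The step between mt-Co1 and mt-Atp6 is smaller than its SD and changes direction, to -0.21, when 200 bases are subtracted from each length to allow for the fragment size. Without division by length the steps from mt-Co3 to mt-Cytb, mt-Nd1 to mt-Nd4 and mt-Nd2 to mt-Nd5 change direction, while that from mt-Co1 to mt-Atp6 does not. The mean step from mt-Co2 to mt-Co3 is then -0.024, with an adjusted p of 0.173 in the permutation test and mt-Co2 above in 54 animals.

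Several members have close copies in the nuclear genome. All 31-base words of mt-Co2, 99.9% of those of mt-Co3 and 99.5% of those of mt-Atp6 also occur in annotated nuclear transcripts such as Gm28437 and Gm10925, against 63.9% for mt-Co1, 62.8% for mt-Nd4, 16.8% for mt-Nd5, 13.5% for mt-Nd2, 6.55% for mt-Cytb and none for mt-Nd1. None of these copies was listed in the table. How reads that match both were assigned is not given in the sources used here, so the levels of mt-Co2, mt-Co3 and mt-Atp6 against the other members carry that uncertainty.

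The ratio of mt-Co1 to mt-Co3 divided the animals into separate clusters. In 22 animals the log2 difference of their deposited levels lay between 0.73 and 1.04, with a median of 0.85, which is 1.80-fold. In the other 70 it lay between 1.40 and 1.91, with a median of 1.65, or 3.14-fold. No animal fell in the interval of 0.36 between them, which was 6.67 times the next widest gap. The 22 animals were spread over the 5 runs of title numbers, with 9 of 33, 3 of 14, 4 of 21, 2 of 11 and 4 of 13 animals. These clusters are not groups of the study. They were seen in the data and are used below as a description, without a test between them: their levels and the order of the members are given side by side, relations are given inside each, and the cluster enters models and the ranking of profiles as a term.

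The same 22 animals lay together in other ratios, most of which share a gene with the one that defined them. They occupied 1 end of the ordering, with no other animal among them, for 9 of the 36 pairs of members, the defining pair included: mt-Co3 against mt-Nd1, mt-Nd2, mt-Co1, mt-Co2 and mt-Atp6, mt-Nd2 against mt-Atp6 and mt-Nd4, and mt-Co1 against mt-Co2 and mt-Nd4. For mt-Nd5 against mt-Cytb only 5 of the 22 extreme animals, and for mt-Co2 against mt-Atp6 only 6, belonged to them. Only mt-Nd2 against mt-Atp6 and against mt-Nd4 did so without mt-Co1 or mt-Co3. Since 99.9% of the 31-base words of mt-Co3 and 63.9% of those of mt-Co1 also occur in nuclear transcripts, these ratios depend on how such reads were assigned, and the part of that assignment in the clusters was not tested. Of the 6 pairs among the 4 members that share least (mt-Nd1, mt-Cytb, mt-Nd2 and mt-Nd5), none held exactly the 22 at 1 end. The overlap was 20 of 22 for mt-Nd2 with mt-Cytb, 19 for mt-Nd2 with mt-Nd1, 18 for mt-Nd2 with mt-Nd5, 10 for mt-Nd1 with mt-Cytb, 9 for mt-Nd1 with mt-Nd5 and 5 for mt-Nd5 with mt-Cytb.

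In absolute levels the clusters overlapped for all 9 members, to different extents. mt-Co1 ran from 14.24 to 15.18 in the 22 animals and from 15.02 to 15.93 in the 70. mt-Nd2 ran from 12.05 to 13.12 and from 12.84 to 14.01, and mt-Nd1 from 12.66 to 13.86 and from 13.35 to 14.43. mt-Co3 covered nearly the same range in both, 13.43 to 14.39 in the 22 and 13.45 to 14.33 in the 70. Of the 22 lowest animals for mt-Co1 and for mt-Nd2, 21 belonged to the smaller cluster, against 20 for mt-Nd1 and mt-Cytb, 19 for mt-Co2 and mt-Nd5, 16 for mt-Atp6 and mt-Nd4 and 9 for mt-Co3. Among the other mitochondrial transcripts, mt-Nd3, which encodes another complex I subunit, separated the clusters without overlap by its level alone, at 8.44 to 9.70 in the 22 animals and 9.82 to 11.07 in the 70. Of the sequence words of mt-Nd3, counted as for the members above, 98.1% also occur in annotated nuclear transcripts. Its level therefore carries the same uncertainty about how reads were assigned, and the part of that assignment in this separation was not tested.

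The order per kilobase, described here with no test, was not the same throughout. mt-Co1 stood above mt-Atp6 in none of the 22 animals and in 66 of the 70. mt-Co2 stood above mt-Co3 in 4 of the 22 and in all 70, and mt-Nd1 above mt-Nd4 in 2 of the 22 and in 64 of the 70. The remaining 5 steps of the order had the same sign in 21 or 22 of the 22 animals and in 60 to 70 of the 70. Their mean sizes differed between the clusters. In the 22 and the 70 animals the step was 0.944 and 0.270 from mt-Nd4 to mt-Nd2, and 0.603 and 0.120 from mt-Co3 to mt-Cytb. It was 0.418 and 0.861 from mt-Nd2 to mt-Nd5, 0.340 and 0.246 from mt-Cytb to mt-Nd1, and 0.202 and 0.231 from mt-Atp6 to mt-Co2.

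**Figure D2:**
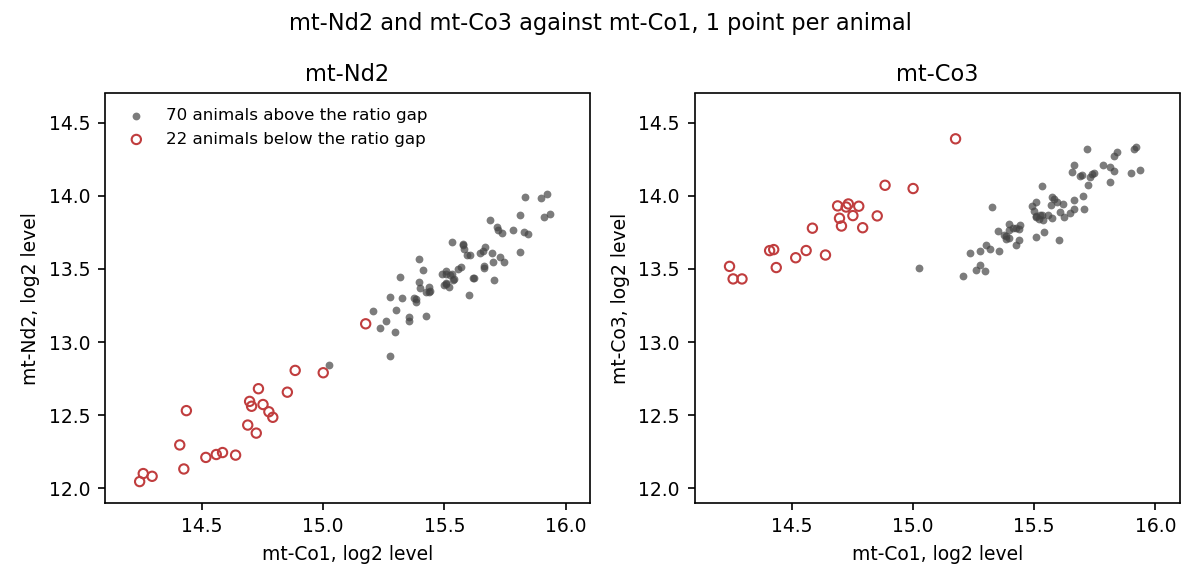
Deposited log2 level of mt-Nd2 (left) and of mt-Co3 (right) against mt-Co1, 1 point per animal, with the 22 animals of the lower mt-Co1 to mt-Co3 ratio as open red circles and the other 70 filled. For mt-Co3 the points form separate bands with an empty interval of 0.36 in log2 ratio between them, whereas for mt-Nd2 they follow each other along 1 band.

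Inside each cluster the 9 mRNAs rose and fell together. Over the 36 pairs, Pearson's r had a median of 0.905 (0.696 to 0.972) in the 22 animals and of 0.863 (0.620 to 0.976) in the 70. Leaving out the 2 animals farthest from the median gave medians of 0.872 and 0.854, and Spearman's rho gave 0.891 and 0.869. These points share the denominator of the per-million scale. After rescaling to nuclear genes the medians were 0.912 and 0.846.

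The tightest pair in the 70 animals was mt-Atp6 with mt-Nd4, with an r of 0.976 and an SD of their log2 ratio of only 0.0590. These are subunits of different complexes, separated on the strand by mt-Co3 and other genes. In the 22 animals the tightest pair was mt-Co1 with mt-Co2, with an r of 0.972. Pairs encoding the same complex were scarcely closer than other pairs, with medians of 0.929 against 0.902 in the 22 animals and 0.887 against 0.860 in the 70. Inside each cluster mt-Nd5 was the loosest member by r. Its r with the other 8 lay between 0.696 and 0.833 in the 22 animals and between 0.620 and 0.730 in the 70, and the SD of its log2 ratio to mt-Cytb, the next gene on the strand, was 0.143 and 0.161. Over all 92 animals, where the clusters add to the spread, the median SD of the log2 ratio to the other 8 was 0.261 for mt-Nd2, 0.252 for mt-Co3 and 0.201 for mt-Nd5. In the nuclear rescaling mt-Nd5 kept the lowest median r in both clusters, at 0.763 and 0.664.

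**Figure D3:**
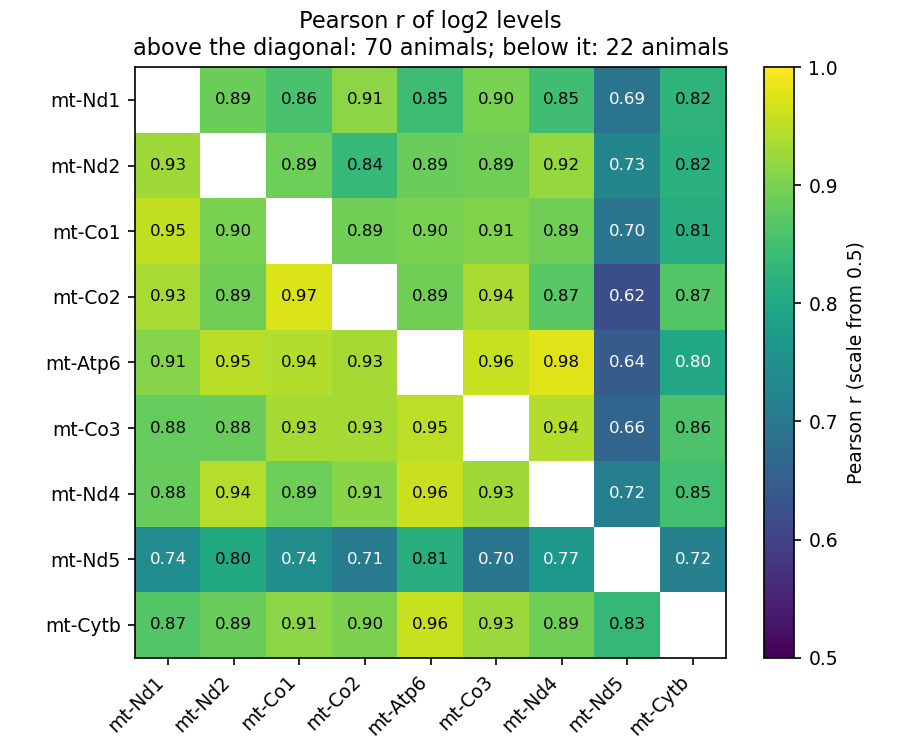
Pearson's r between the deposited log2 levels of each pair of the 9 mRNAs, with genes in the order of the strand, for the 70 animals above the diagonal and the 22 animals below it (colour scale from 0.5 to 1). The cells of mt-Nd5 are the lowest in both, at 0.620 to 0.730 and 0.696 to 0.833, while mt-Atp6 with mt-Nd4 reaches 0.976 in the 70 animals.

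Which nuclear genes followed the mitochondrial mRNAs was asked with a linear model for each gene in limma, with the standardised level of 1 member as predictor. A slope is the log2 change of a gene per SD of that member over the 92 animals, and a gene was called at a Benjamini-Hochberg adjusted p under 0.05 over all genes. With no other term in the model few nuclear genes were called for most members: 8 for mt-Nd1 (0.0596% of 13428), 1 for mt-Nd2 (0.00745%), 1 for mt-Co1 (0.00745%), 10 for mt-Cytb (0.0745%), 58 for mt-Atp6 (0.432%), 92 for mt-Nd4 (0.685%) and 237 for mt-Co2 (1.76%). For mt-Nd5 limma called 0 nuclear genes, with 1021 genes at an unadjusted p under 0.05. mt-Co3 had the most, 648 nuclear genes (4.83%), of which 430 rose and 218 fell (254 and 214 after rescaling to nuclear genes).

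With the cluster of the animal as a term in the model, each of the 9 members had between 425 and 933 nuclear genes called. There were 578 for mt-Co1 (4.3%; 435 rose and 143 fell), 933 for mt-Co2 (6.95%; 575 and 358), 690 for mt-Co3 (5.14%; 461 and 229), 691 for mt-Nd1 (5.15%; 480 and 211), 425 for mt-Nd2 (3.17%; of which 87 fell), 525 for mt-Nd4 (3.91%; 405 and 120), 749 for mt-Nd5 (5.58%; 541 and 208), 551 for mt-Cytb (4.1%; 365 and 186) and 525 for mt-Atp6 (3.91%; 392 and 133). Fitted in the 70 animals of the larger cluster alone, limma called 1.83% of nuclear genes for mt-Co1, 3.53% for mt-Co2, 1.98% for mt-Co3, 2.59% for mt-Nd1, 1.02% for mt-Nd2, 1.41% for mt-Nd4, 1.09% for mt-Nd5, 1.82% for mt-Cytb and 1.49% for mt-Atp6. The models with the cluster term were added after the clusters had been seen. With the cluster term the count for mt-Co3 lay inside the range of the other members.

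Nuclear subunits of oxidative phosphorylation rose with the members. In the model with the cluster term, 48 of 78 subunits rose with mt-Co1 and 0 fell, against 3.24% of nuclear genes rising. The median slope of the 78 was 0.14, against 0.00 for all nuclear genes, and 73 of 78 slopes were above 0. The count was 61 of 78 with mt-Cytb (background 2.72%), 56 with mt-Co2 (4.28%), 48 with mt-Co3 (3.43%), 46 with mt-Nd1 (3.57%), 30 with mt-Atp6 (2.92%), 29 with mt-Nd2 (2.52%), 27 with mt-Nd4 (3.02%) and 9 with mt-Nd5 (4.03%). No subunit fell with any member. Without the cluster term the counts were 46 with mt-Co3, 31 with mt-Co2, 13 with mt-Nd4, 11 with mt-Atp6, 3 with mt-Cytb, 1 with mt-Nd1 and 0 with mt-Nd2, mt-Co1 and mt-Nd5. The count with mt-Nd5 was the least settled, at 25 with 3 principal components beside the cluster term, 5 after nuclear rescaling and 1 in the 70 animals alone, where that with mt-Nd2 was 18. Transcript length and composition moved with these fits. The nuclear genes that rose with mt-Co1 had a median length of 1228 nt and a GC content of 47.2%, those that fell 1790 nt and 54.5%, and all nuclear genes 1465 nt and 50.5%. With mt-Cytb the genes that rose had a median of 908 nt and those that fell 1992 nt, whereas with mt-Nd5 it was 2074 and 1178 nt. The lists of respiratory chain subunits are short, with median lengths from 493.5 nt for complex IV to 978.5 nt for complex II. The part of length and composition in these counts was not tested.

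The rise extended over every complex. With mt-Co1, 20 of 36 complex I subunits rose, 3 of 4 of complex II, 7 of 9 of complex III, 6 of 13 of complex IV and 12 of 16 of ATP synthase. Complex II has no mitochondrially encoded subunit. Ndufb6, an accessory subunit of complex I, ran from 5.38 through a median of 5.78 to 6.26 and had a slope on mt-Co1 of 0.23 ± 0.03 (SE; limma adjusted p 2.7e-08). Its r with mt-Co1 was 0.609 in the 22 animals and 0.650 in the 70. Ndufv2, an iron-sulphur subunit of complex I, had a slope of 0.18 ± 0.03, with r of 0.723 and 0.565. Cox4i1, the nuclear subunit that joins complex IV early in assembly, ran from 8.24 to 9.08 with a slope of 0.22 ± 0.03 (limma adjusted p 8.4e-07), and Atp5f1a, the alpha subunit of the F1 part of ATP synthase, had a slope of 0.24 ± 0.03 (limma adjusted p 1.78e-08).

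Enzymes that feed the chain moved the same way. Of 15 genes of the citric acid cycle and its entry, 13 rose with mt-Co1, 12 with mt-Nd1, mt-Co2, mt-Co3 and mt-Cytb, 11 with mt-Atp6, 10 with mt-Nd4 and 9 with mt-Nd2 and mt-Nd5, against 2.52% to 4.28% of nuclear genes. Without the cluster term 10 rose with mt-Co3, 2 with mt-Co2, mt-Atp6 and mt-Nd4 and 0 with the other 5. In the 70 animals alone the counts ran from 3 (mt-Atp6 and mt-Nd5) to 12 (mt-Co2). Idh3a, the catalytic subunit of NAD-linked isocitrate dehydrogenase, ran from 8.65 to 9.65 with a slope on mt-Co1 of 0.20 ± 0.03 and r of 0.652 and 0.668 in the clusters. Slc25a3, the phosphate carrier, had a slope of 0.22 ± 0.03. Ckmt2, the mitochondrial creatine kinase of striated muscle, rose by 0.42 ± 0.05 per SD of mt-Co1 (limma adjusted p 4.83e-09), and Mb, which encodes myoglobin, by 0.56 ± 0.08. Mb ran from 9.06 through 10.63 to 11.64. Among the muscle markers it was the only one of 8 called with mt-Co1 in this model.

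Of 20 genes of mitochondrial DNA maintenance and transcription, 1 or 2 rose with each member, near the 2.52% to 4.28% of nuclear genes that rose, and Polg, the mitochondrial DNA polymerase, fell with mt-Nd5 by 0.11 ± 0.04 (limma adjusted p 0.0463). Polrmt, the mitochondrial RNA polymerase, had a slope of 0.18 ± 0.06 on mt-Co1 with a limma adjusted p of 0.10. On mt-Cytb its slope was 0.22 ± 0.05 with a limma adjusted p of 0.0013. Tfb2m, a transcription initiation factor of mitochondria, rose with mt-Co1 by 0.14 ± 0.04 (limma adjusted p 0.0261). Of 24 genes of RNA processing, polyadenylation and stability, 6 rose with mt-Co1 (background 3.24%) and with mt-Nd5 (4.03%) and 2 with mt-Cytb (2.72%). Differences between lists were not tested. Lrpprc, which protects mitochondrial mRNAs and supports their tailing, had a slope of 0.12 ± 0.03 on mt-Co1 (limma adjusted p 0.0248) and of 0.11 ± 0.02 on mt-Nd5 (limma adjusted p 0.0006). Grsf1, an RNA-binding protein of mitochondrial RNA granules, rose by 0.15 ± 0.03 on mt-Co1.

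Of the 78 mitochondrial ribosomal proteins, 24 rose with mt-Co2 (background 4.28%), 23 with mt-Cytb (2.72%), 12 with mt-Co1 (3.24%) and 3 with mt-Nd5, which is near its background of 4.03%. With 3 principal components beside the cluster term the first 3 counts were 8 each. Ribosomal genes of the cytosol moved with the same members: of 93, 23 rose with mt-Co2 and 22 with mt-Cytb (1 fell), 5 with mt-Co1 and 1 with mt-Nd5. Assembly factors of the complexes gave 7 of 34 with mt-Co2 and mt-Cytb and 2 with mt-Nd5, the last again near the background. A list of 15 transcriptional regulators of oxidative metabolism had 5 called with mt-Nd5 (5.58% of nuclear genes called), 4 with mt-Nd2 (3.17%), 3 with mt-Co1 (4.3%), 2 with mt-Nd1 (5.15%) and none with the other 5 members. With mt-Nd5 these were Ppargc1a, the PGC-1 alpha coactivator (slope 0.32 ± 0.09, limma adjusted p 0.0235), Ppara (0.35 ± 0.09, 0.0121), Esrrg (0.29 ± 0.06, 0.000825), Esrrb (0.27 ± 0.08, 0.0300) and Perm1 (0.22 ± 0.05, 0.00425), all rising. Esrrg and Esrrb are estrogen-related receptors, and Perm1 is a muscle regulator induced by them. In the 70 animals alone 2 of the 15 were called with mt-Nd5 and 2 with mt-Co1, and with 3 principal components beside the cluster term each member had 2 to 5. On mt-Co1, Ppargc1a had a slope of 0.20 ± 0.14 and a limma adjusted p of 0.47.

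**Figure D4:**
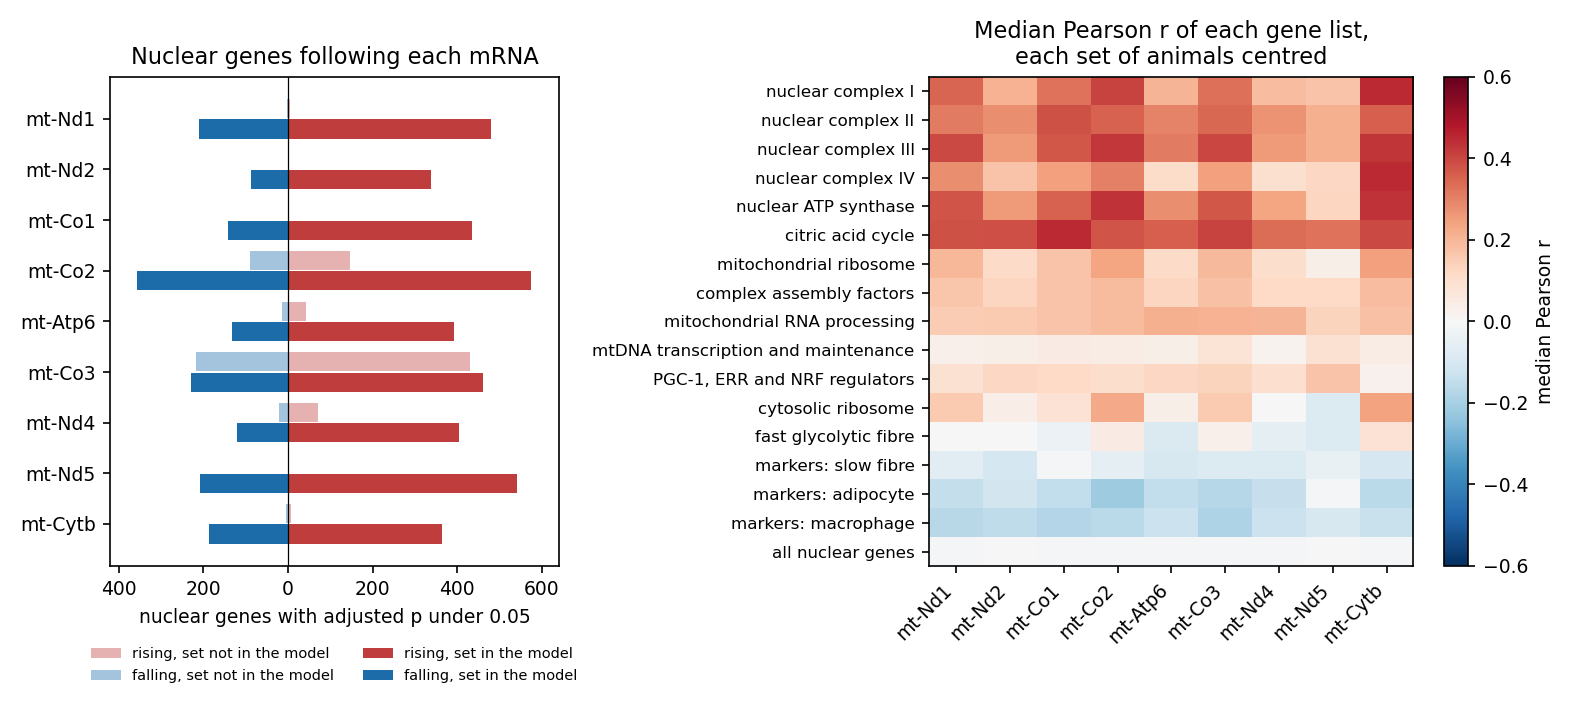
Left, number of nuclear genes that rose (right of 0) or fell (left of 0) with each of the 9 mRNAs at an adjusted p under 0.05 in limma, without (pale) and with (dark) the cluster of the animal, called set in the picture, in the model. Right, median Pearson's r of each gene list with each mRNA after centring each cluster: for the 78 oxidative phosphorylation subunits as a whole it is 0.44 with mt-Cytb and 0.16 with mt-Nd5, and for all nuclear genes -0.01 to 0.00.

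The genes with the steepest slopes on mt-Co1 included several of other kinds. Bdh1, the ketone body enzyme 3-hydroxybutyrate dehydrogenase, rose by 0.79 ± 0.19 (limma adjusted p 0.00547), although in the 70 animals alone its adjusted p was 0.0707. Fat1, an atypical cadherin, fell by 0.57 ± 0.14, and Notch2, a receptor of cell contact signalling, fell by 0.31 ± 0.06 (limma adjusted p 0.000453). Vash1, a tubulin carboxypeptidase, fell by 0.46 ± 0.10. AW822252, a transcript of unknown function, was the only nuclear gene called with mt-Co1 when the cluster was not in the model (slope 0.24 ± 0.05, limma adjusted p 0.0255). With the cluster its slope was 0.56 ± 0.11. Of 76 genes named for their slopes with the cluster term, 75 stayed past the threshold when the run of title numbers was added, 66 under nuclear rescaling and 51 in the 70 animals alone.

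Genes most like the members were ranked by the median of their r with the 9 over 92 animals, after the mean of each cluster had been subtracted. Gm10053 led with 0.701. For each of the 10 leading genes the uncentred value, which mixes the clusters, was lower. It shares 96.6% of its 31-base words with Cycs, the cytochrome c gene, so its reads and those of Cycs cannot be separated with certainty. Next came Ndufb6 (0.618), Slc25a3 (0.615), Idh3a (0.613), Ndufv2 (0.597), Ndufab1 (0.581), Emc2 (0.573), Cox4i1 (0.571), Atp5f1a (0.567) and Ckmt2 (0.551). The median over all nuclear genes lay between -0.01 and 0.00 for each member. The most opposite profiles were those of Zfp574 (-0.494), Rpap1 (-0.460), Notch2 (-0.460), Vash1 (-0.449) and Daam2 (-0.440). The same measure without centring had been laid down for the 92 animals as 1 set and named AW822252, Polrmt, Ndufs3, Atp5po, Ptcd3, Ndufs8, Timmdc1, Cdk5rap1, Ndufb4 and Ndufv1, whose centred medians were 0.322 to 0.543.

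The difference between mt-Co3 and mt-Co1 was tested directly with both in 1 model. Without the cluster term limma called 55 of 13439 genes (0.409%). With it, limma called 2 genes, Esrrg (slope on mt-Co3 minus slope on mt-Co1 of -1.51 ± 0.27, adjusted p 0.00305) and Gm15543 (-2.63 ± 0.53, adjusted p 0.0239), with 1407 at an unadjusted p under 0.05. Neither was among the 55. The cluster is itself a cut of the mt-Co1 to mt-Co3 ratio, so the term takes up much of the difference being compared. The SD of the log2 ratio was 0.349 over 92 animals and 0.087 and 0.096 inside the clusters. The counts with and without the term are therefore not independent of its choice. Slopes are per SD over 92 animals, 0.439 for mt-Co1 and 0.232 for mt-Co3. Inside the 70 animals these SDs were 0.194 and 0.224.

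mt-Cytb and mt-Nd5, neighbours on the + strand and the extremes in the count of oxidative phosphorylation genes, differed widely when compared in the same way with the cluster term. Of 13428 nuclear genes, 3124 (23.3%) had slopes that differed at an adjusted p under 0.05 in limma, 1356 of them (10.1%) with the higher slope on mt-Cytb and 1768 (13.2%) on mt-Nd5. The log2 ratio of mt-Cytb to mt-Nd5 that carries this comparison ran from 0.72 through 0.83 to 1.16 in the 22 animals and from 0.51 through 0.86 to 1.25 in the 70, so that the clusters overlapped. The pair was chosen because it held the extremes of the oxidative phosphorylation count, so the values of that list below describe the difference that led to the choice and are no independent evidence of it. The ribosomal and regulator lists had also differed between these members in the fits above, on the same animals. Their values below are not independent of those counts.

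The difference took in ribosomal proteins as well as the subunits of the respiratory chain. Of 78 oxidative phosphorylation subunits, 69 had the higher slope on mt-Cytb and 1, Uqcrc2, on mt-Nd5, a call that was lost after nuclear rescaling and with the run of title numbers in the model. The median difference of their slopes was 0.33, against 0.00 for all nuclear genes. They included 35 of 36 in complex I, 7 of 9 in complex III, 10 of 13 in complex IV and 15 of 16 in ATP synthase. Ndufs3 had a slope of 0.26 on mt-Cytb and of -0.13 on mt-Nd5, a difference of 0.39 ± 0.05 (limma adjusted p 2.15e-08). Cox5a had a difference of 0.40 ± 0.06.

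Of 78 mitochondrial ribosomal proteins, 47 had the higher slope on mt-Cytb and 0 on mt-Nd5. The list of cytosolic ribosomal genes gave 75 of 93 on mt-Cytb and 3 on mt-Nd5. That list was made by symbol and also holds ribosomal protein S6 kinases, and Rps6ka2, Rps6ka3 and Rps6kc1 are the 3. Rps25 had a difference of 0.41 ± 0.05 and Rpl13 of 0.45 ± 0.06. Of 13 nuclear-retained and stress transcripts, 6 were on the side of mt-Cytb, among them the nuclear RNA Malat1 with 1.01 ± 0.18. The citric acid cycle was even, with 2 on each side.

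On the side of mt-Nd5 stood 5 of the 15 regulators and none on that of mt-Cytb. Of all nuclear genes 13.2% were on the side of mt-Nd5 and 10.1% on that of mt-Cytb. No list was tested against these shares, and counts of a few genes in the short lists below are not read as results about them. Ppara had a difference, mt-Cytb minus mt-Nd5, of -1.31 ± 0.24 (limma adjusted p 2.23e-05) and Esrrg of -0.55 ± 0.17. Of the translation factors of mitochondria 4 of 16 were on the side of mt-Nd5 and 1 on that of mt-Cytb, and 2 on each with the run of title numbers in the model. Of the 8 adipocyte markers, Plin1 and Cfd were on the side of mt-Nd5, and the median difference of the list was -1.07. With 3 principal components in the model that median was 1.31, with 0 of the 8 called on either side. Of the 8 skeletal muscle markers Myh4, the fast myosin heavy chain, was on the side of mt-Nd5, with -0.35 ± 0.11. Another 3 of the 8 were on the side of mt-Cytb: Pvalb with 0.30 ± 0.10, Mylpf with 0.29 ± 0.11 and Acta1 with 0.23 ± 0.08. With the run of title numbers in the model 1 of the 8 was on each side. The list of fast glycolytic fibre genes had 5 of 11 on the side of mt-Cytb and 1 on that of mt-Nd5, with a median difference of 0.20, and 2 and 1 with the run of title numbers in the model.

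**Figure D5:**
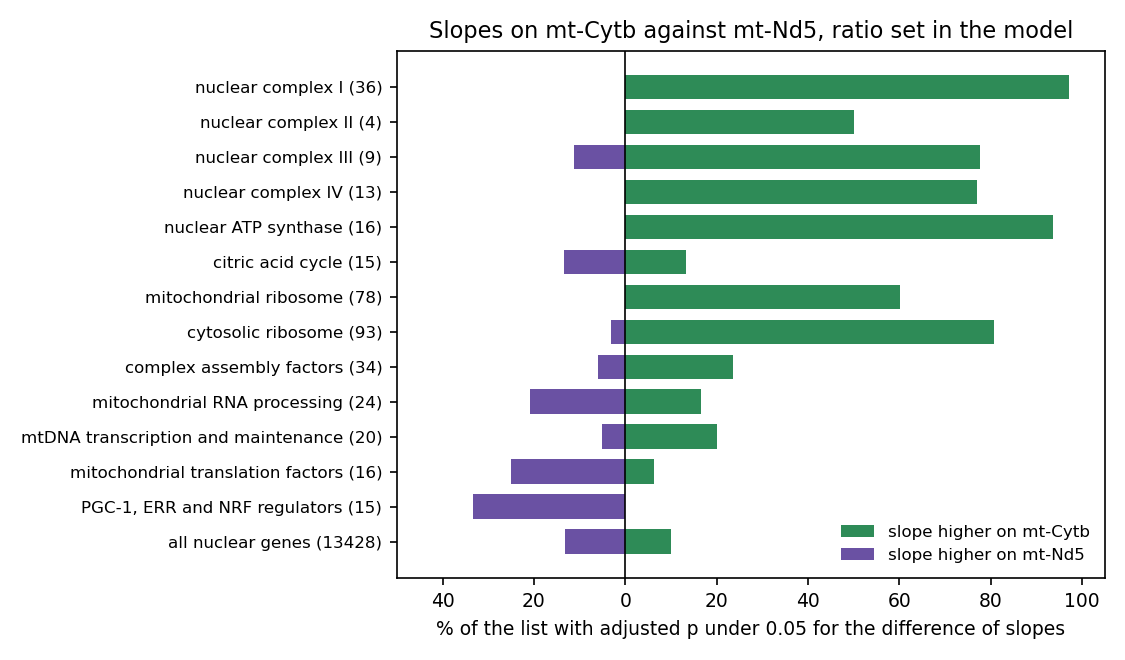
Percentage of each nuclear gene list (number of genes in brackets) whose slope was higher on mt-Cytb (right) or on mt-Nd5 (left) at an adjusted p under 0.05 in limma, with the cluster of the animal in the model. 35 of 36 complex I and 75 of 93 cytosolic ribosome genes lie on the mt-Cytb side and 5 of 15 regulators on the mt-Nd5 side, against 10.1% and 13.2% of all nuclear genes.

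Transcript length and composition moved with this comparison. The nuclear genes with the higher slope on mt-Cytb had a median transcript length of 874 nt and a GC content of 53.2%, those on the side of mt-Nd5 2158 nt and 47%, and all nuclear genes 1465 nt and 50.5%. The complex I list had a median of 690.5 nt. mt-Nd5 is itself the longest of the 9, at 1824 bases, against 1144 for mt-Cytb. The ratio of mt-Cytb to mt-Nd5 had an r of 0.532 and 0.596 in the clusters with the second principal component of expression and of -0.457 and -0.292 with the third. With the first 3 components in the model limma called 14 genes and 0 of the 78 oxidative phosphorylation subunits, with 1796 genes at an unadjusted p under 0.05. The median difference of the 78 was then 0.19, with the higher slope again on mt-Cytb. The part of length, composition or RNA quality in the result was not tested.

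Other values moved with the level of the members as a whole. The summed share of the skeletal muscle markers had an r of -0.814 in the 22 animals and of -0.528 in the 70 with the share of the 9 mRNAs, both being parts of 1 sum. The adipocyte share had an r of -0.322 and 0.046. In the model with the cluster term 1 of 8 adipocyte markers was called, Retn, the gene of the hormone resistin, which fell with mt-Co2 by 0.41 ± 0.14 (limma adjusted p 0.0492). All 8 adipocyte slopes were below 0 on mt-Nd1, mt-Co2, mt-Co3 and mt-Cytb. This direction was not particular to adipocytes. After centring each cluster, the median r of the adipocyte, macrophage, fibroblast and Schwann lists was below 0 with each of the 9 members. No gene of the endothelial, macrophage, fibroblast, Schwann or blood lists was called with any member in the model with the cluster term. The part of fibre composition in the results above was not tested.

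The series concerns ceramides, whose synthases Cers1 and Cers2 set the length of the acyl chain. Neither was related to the 9 mRNAs at the threshold. With Cers2 as predictor limma called 0 of 9 members, against 7.96% of all genes, with a smallest adjusted p of 0.679 and 0 of 9 at an unadjusted p under 0.05. With the cluster term mt-Nd5 had an unadjusted p of 0.0447 in limma (slope -0.05 ± 0.02, adjusted p 0.197). The share of all genes called with Cers2 was itself unstable, 21.3% after nuclear rescaling, 1.47% in the 70 animals alone and 0.0149% with 3 principal components in the model. With Cers1 limma called 0 of 9, against 4.87% of all genes, which ran from 2.47% to 4.21% under the alternatives. mt-Nd2, mt-Nd1 and mt-Co1 had an unadjusted p under 0.05, and mt-Nd2 the largest slope, 0.13 ± 0.05 (limma adjusted p 0.133). The same genes stayed under 0.05 unadjusted in limma after nuclear rescaling and with the run of title numbers, where mt-Nd2 had an adjusted p of 0.0987. With 3 principal components mt-Nd1, mt-Nd2 and mt-Nd5 were under it. For Cers1 with the cluster term, or without animals 62 and 68, which lay farthest from the median of Cers1, 0 of 9 had an unadjusted p under 0.05. The runs of title numbers did not separate the members either, with 0 of 9 called by limma against 0.0149% of all genes and adjusted p between 0.879 and 0.984.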

How the data were processed

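RNA of 92 quadriceps samples was sequenced by the submitters, and 1 table of log2 expression values, 1 column per animal, was deposited by the authors. The submitters' processing notes name bcl2fastq, MultiQC, kallisto 0.50.1, edgeR and the build mm10. The role of each, the filter on low genes and the normalization are not given in the sources used here. The per-million scale was read from the sums, whether the values were already divided by transcript length is not given there either, and the depth of each library is unknown.

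The table held 13456 rows, of which 15 were repeats. All columns matched a sample title. No pair of the 4186 pairs of libraries was a duplicate, the smallest root mean square log2 difference being 0.521. Nothing says more of the replicates than that they are separate animals, so p-values measure only the spread between these samples.

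A count test had been planned. Because the values are log2, limma 3.58.1 in R 4.3.3 was used (moderated, with a mean-variance trend) with Benjamini-Hochberg adjustment over all genes. Level order was tested by sign-flip permutation in Python 3.11.15 with numpy 2.4.6. On data simulated from these 13441 genes, the slope on mt-Co1 was recovered for 29% of 100 genes changed by 0.3 SD and 97% of 100 changed by 0.6 SD. Lengths, coordinates and sequences came from GENCODE M21.

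Title numbers form 5 runs (a new run after a gap above 30), which the labels do not explain and which were treated as a possible batch. Alternatives were nuclear rescaling, the run as a covariate, the first 3 principal components, normal scores, log2(value + 1), a mean of at least 1, and the removal of the 2 farthest animals. The members, the gene lists and the tests were chosen with earlier results of these data known. Named genes were the members, the called genes with the steepest slopes on mt-Co1, called list genes and the 10 most alike and 5 most opposite profiles, with a mean of at least 1. The ratio clusters (the widest gap leaving 6 or more animals at either end), the models and rankings that use them, the fits of mt-Co2, mt-Co3, mt-Nd2, mt-Nd4 and mt-Nd5, and both direct comparisons were added after seeing the data. Ceramide and insulin measurements were not analysed here.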

Additional observations from a re-analysis of the deposited data

How the results depend on the processing

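The step from mt-Co1 to mt-Atp6 per kilobase reversed to -0.21 when 200 bases were subtracted from each length, and the other 7 steps kept their direction there. Without division by length, an alternative chosen after seeing the data, the mean steps from mt-Co2 to mt-Co3, mt-Co3 to mt-Cytb, mt-Nd1 to mt-Nd4 and mt-Nd2 to mt-Nd5 changed sign to -0.024, -0.31, -0.42 and -0.059. That of -0.024 had an adjusted p of 0.173 in the permutation test, with mt-Co2 above mt-Co3 in 54 animals. The 9 mRNAs came to 19.7% of the nuclear sum at the median. As designed, limma called 0.141% of all genes tested for mt-Nd1, 0.0893% for mt-Nd2 and mt-Co1, 1.85% for mt-Co2, 0.513% for mt-Atp6, 4.91% for mt-Co3, 0.766% for mt-Nd4, 0.0818% for mt-Nd5 and 0.156% for mt-Cytb. The cluster term gave 5.23%, 3.25%, 4.39%, 7.03%, 3.996%, 3.996%, 5.66% and 4.19% for mt-Nd1, mt-Nd2, mt-Co1, mt-Co2, mt-Atp6, mt-Nd4, mt-Nd5 and mt-Cytb. For these 8 in that order, adding the run of title numbers to it gave 4.57%, 3.17%, 4.35%, 6.06%, 3.95%, 4.41%, 4.69% and 3.62%, nuclear rescaling 4.42%, 2.46%, 3.93%, 6.53%, 3.62%, 3.53%, 3.65% and 3.35%, and 3 principal components 4.14%, 2.999%, 4.57%, 3.55%, 4.49%, 4.49%, 1.22% and 2.19%. The 70 animals alone gave 2.68%, 1.11%, 1.91%, 3.62%, 1.56%, 1.5%, 1.18% and 1.91%, and 2.06% for mt-Co3. Without the cluster term, 3 principal components gave 0.0893% for mt-Nd1, 0.134% for mt-Co2, 0.201% for mt-Atp6, 2.84% for mt-Co3, 0.357% for mt-Nd4 and 0.0818% for mt-Cytb; normal scores gave 0.744% for mt-Nd1, 0.193% for mt-Co1, 2.92% for mt-Co2 and 0.312% for mt-Cytb. Nuclear rescaling gave 0.327% for mt-Atp6 and 0.417% for mt-Nd4, and the run as covariate 1.03% for mt-Co2. Without the 2 farthest animals the shares were 0.677% for mt-Co2 (animals 35 and 28), 3.17% for mt-Co3 (85 and 13) and 0.32% for mt-Cytb (3 and 57). Genes whose slopes differed between mt-Co3 and mt-Co1 numbered 89 with 3 components and 2 with the cluster term, and those between mt-Cytb and mt-Nd5 14 with 3 components. The cause of these shifts was not tested.

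Of all alternative values, 1269 were counted as kept, 62 moved, 5 reversed and 176, all of single genes, fell short of the threshold. Kept means the same direction and side of the threshold, or a small move. A change of direction between values that both missed the threshold was also counted as kept. Among the values that answer a comparison, 100 kept, 61 moved and 5 reversed. No paired analysis was possible because the animals form 1 group and their numbers follow accession order. The main limits are that read depth is unknown, that a per-million scale ties all genes of a library together, and that the clusters were found in the same values that they are used with.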
